A study of Mus musculus with 36 samples.

Results

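This report describes the step from day 2 to day 3 in WT cells of a mouse neural induction time course. It rests on 4 of the 36 bulk RNA-seq libraries of the series: day 3 of the lines WT7 and WT34, against day 2 of the same lines. The libraries were picked by genotype, line and day. The series followed *Tet1* KO, *Tet1* MUT and WT ESCs as they became anterior neural progenitor cells (antNPCs), and these 4 libraries belong to its daily time course of 18 libraries. WT7 and WT34 are male ESC lines derived from blastocysts on a (B6 × 129S6)F1 background, *Tet1* tm1Koh being the allele carried by their littermate KO lines. Levels are given for WT days 1 to 5 and KO days 2 and 3, and for WT day 3 of a first differentiation. The main fit took in all 18 time-course libraries, and some alternative fits all 36, with the MUT lines and the line WT70. The groups with levels given shared 1 protocol. ESCs grown in serum were freed of feeder cells, plated on gelatin in serum-free N2B27 medium with B27 lacking vitamin A, and given bFGF at 10 ng/ml. The growth factor was present from the first day up to day 3, when the medium was replaced by one without it. Each line is a single derivation, and each day of a line gave 1 library, so n = 2 per day and p-values measure the spread between libraries of the time course, which may in part be technical. The labels do not say whether the day 3 cells were collected before or after the medium change.

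As ESCs leave naive pluripotency they pass through a formative state and then become primed, a sequence that mirrors the epiblast of the embryo around implantation. Naive factors and a set of germline genes are shut down, the core factor gene *Pou5f1* stays on, and the cells become able to form either neural tissue or primitive streak. FGF signalling through ERK drives this exit, Wnt and Nodal signalling favour the streak, and their absence favours neural fate.

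Between day 2 and day 3 WT cells lost much of their remaining naive and germline transcripts, while *Nanog* rose by 2.22 on the log2 scale and low levels of *Fgf8*, *Wnt3* and *T* appeared. The epiblast genes *Pou5f1* and *Fgf5* stayed level, while the formative and primed list leaned lower (median -0.37) with 0 of 14 passing. A limited set of neural, keratin and hedgehog pathway genes moved. Of 20143 genes tested, 390 rose and 352 fell, in all 742 genes or 3.68% (1.94% rising and 1.75% falling). Passing here, and throughout, means an adjusted p under 0.05 in the quasi-likelihood F test of edgeR, with the cell line in the model, and a log2 fold change beyond 1 in size. The median log2 fold change over all tested genes was 0.02. The libraries of both days did not overlap for 737 of the 742 genes, against 59.5% of all tested genes, and 738 moved the same way in WT7 and in WT34. In 571 the change was beyond 1 on the log2 scale in each line. The same libraries made the calls, so these counts describe the passing genes and are no separate check. Without the condition on the fold, 2478 genes had an adjusted p under 0.05.

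**Figure D1:**
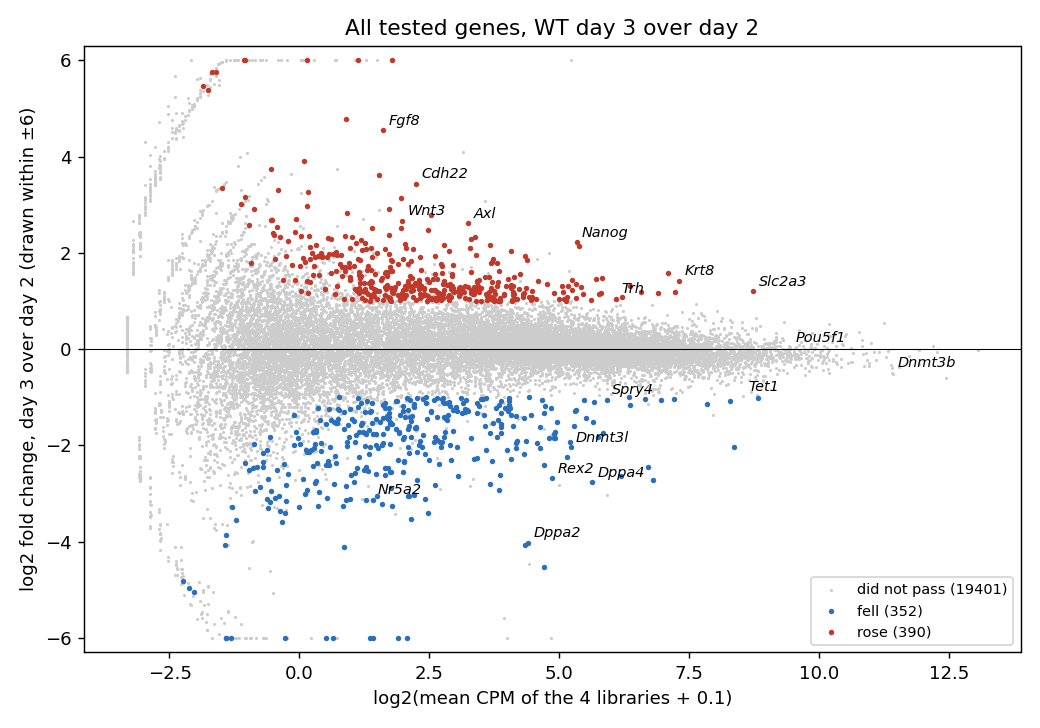
Each point is 1 of the 20143 tested genes. The horizontal axis is the log2 of the mean level over the 4 libraries in counts per 1000000 counts of the library (CPM), with 0.1 added, and the vertical axis is the log2 fold change of WT day 3 over day 2, drawn within ±6. The 390 genes that rose and the 352 that fell lie to either side of the line at 0, to which *Pou5f1* (0.04) and *Dnmt3b* (-0.49) are closer.

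The number of calls depended on each of the 4 libraries. Without the WT7 library of day 3 the number passing was 395, without the WT34 library of day 3 it was 404, without the WT7 library of day 2 it was 408 and without the WT34 library of day 2 it was 410. Of the 742 genes 355 to 363 were called again in each of these fits. Of 89 passing genes chosen by rule for description, 56 passed in all 4 of them. Each of these fits left 1 library on a day, so the spread came from the other groups of the time course, and the lone library was assumed to vary like them. In a fit that also took in day 3 of the first differentiation, another experiment on the same lines, 72 of the 89 genes passed and 17 did not.

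The libraries held 12.8 M to 26.3 M counts (M, 1000000 counts), with the WT34 library of day 3 at the top, and 24832 to 27530 genes with a count. Mitochondrial genes took 1.51% to 1.71% of the counts. The epiblast markers *Pou5f1*, *Fgf5*, *Otx2*, *Dnmt3b* and *Pim2* summed to 1299 and 1075 transcripts per 1000000 transcripts (TPM) in WT7 and WT34 on day 3, against 1206 and 1214 TPM on day 2. The 5 neural progenitor markers were *Sox1*, *Pax6*, *Nes*, *Zic1* and *Lhx5*. Their sum was 30.1 and 32.3 TPM on day 3, against 16.9 and 23 TPM on day 2. Most of each sum was *Nes*, with 28.8 and 30.9 TPM on day 3, against 16.4 and 21.8 TPM on day 2. Of 7 fibroblast markers, which feeder cells would bring, the sum was 34.8 and 30.3 TPM on day 3, against 29.2 and 33.2 TPM on day 2. The visceral endoderm markers summed to 4.46 and 7.96 TPM on day 3, against 6.18 and 11.5 TPM on day 2. The definitive endoderm markers summed to 2.62 and 3.42 TPM on day 3, against 2.50 and 2.97 TPM on day 2. In bulk RNA fewer cells of a type and less RNA per cell cannot be told apart, which holds for every level below.

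The germline list moved as a block. Of 20 listed genes 16 passed the filter on low counts, 13 fell, 0 rose and 3 did not pass, with a median log2 fold change of -2.35 beside 0.02 over all genes and 1.75% of all genes falling. The 3 were *Slc25a31* (-3.28, adjusted p = 0.0527), *Sycp3* (-0.75) and *Brdt* (-0.70). These genes act in meiosis and in the piRNA pathway that silences transposons in germ cells, and ESCs transcribe some of them at a low level. *Ddx4*, an RNA helicase gene of germ cells, had 7.77 and 7.33 CPM in WT7 and WT34 on day 3, against 28.9 and 28.1 CPM on day 2. The lines were nearly alike on both days, and the change was -1.92 (SE 0.13, adjusted p = 2.47e-05). *Mael*, a piRNA pathway gene, had 0.814 and 0.875 CPM on day 3, against 5.13 and 5.38 CPM on day 2 (-2.62, SE 0.42). *Tdrd12*, of the same pathway, had 2.59 and 2.30 CPM on day 3, against 14.5 and 10.2 CPM on day 2 (-2.31, SE 0.20). Also lower on day 3, with days apart in both lines, were *Piwil2* (-1.94, SE 0.21), which encodes a piRNA-binding Argonaute, *Tex19.1* (-2.04, SE 0.26) and the retrocopy *Rpl10l* (-3.27, SE 0.39). Of the 13 genes 10 passed in all 4 fits that left out a library, and 10 to 11 in any 1 of them.

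Many germline genes carry near their start an E-box, the palindrome CACGTG, which is a known binding site of basic helix-loop-helix factors, among them the MAX/MGA pair that represses germline genes in ESCs. RefSeq promoters of the build GRCm38.p6, 250 bases before to 50 after the start, were at hand for 12 of the 13 fallen germline genes. CACGTG lay in those of 8 genes, or 66.7%, against 11.2% of 12735 tested genes with a promoter. It lay in 13.5% of 215 fallen genes, which include these 12, and in 7.52% of 266 risen genes. Germline genes that did not fall were not counted apart. It lay in 7.15% of all 32851 promoters. Both strands were searched, which for this palindrome is 1 search, and 3 other motifs were looked for. GCGGGAA (or TTCCCGC) lay in 25.0% of the fallen germline genes and 9.05% of tested genes, and CTTTGAT (or ATCAAAG) and ATGCAAAT (or ATTTGCAT) in 0 of the 12. These motifs were chosen after the fall of the list was known, and a match is a description of the letters alone. Where a gene had several promoters, the first by position that holds the box was used. *Hormad1* held 2 boxes, of which only the upstream one nearest the start is shown. The site of each of the 8 genes is given on the strand of the gene and upstream of its start. Up to 30 bases are shown on each side, with the E-box in capitals.
Ddx4: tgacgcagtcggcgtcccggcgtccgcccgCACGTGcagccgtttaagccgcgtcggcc
Hormad1: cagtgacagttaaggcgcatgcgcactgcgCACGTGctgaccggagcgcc
Mael: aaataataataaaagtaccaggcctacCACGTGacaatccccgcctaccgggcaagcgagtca
Mov10l1: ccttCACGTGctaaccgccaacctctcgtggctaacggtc
Stk31: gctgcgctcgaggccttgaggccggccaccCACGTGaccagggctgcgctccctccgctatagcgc
Sycp1: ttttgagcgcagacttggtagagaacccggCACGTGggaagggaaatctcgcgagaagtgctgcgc
Taf7l: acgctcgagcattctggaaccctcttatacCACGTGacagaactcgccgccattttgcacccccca
Tdrd1: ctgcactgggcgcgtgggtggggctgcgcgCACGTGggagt

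In GRCm38.p6 these windows lay at chr13:112652311-112652369 (*Ddx4*, minus strand), chr3:95559627-95559676 (*Hormad1*, plus), chr1:166238932-166238994 (*Mael*, minus) and chr15:88982744-88982783 (*Mov10l1*, plus). The others lay at chr6:49395454-49395519 (*Stk31*, plus), chr3:102936159-102936224 (*Sycp1*, minus), chrX:134476504-134476569 (*Taf7l*, minus) and chr19:56826168-56826208 (*Tdrd1*, plus). The first base of the box stood 11 bases upstream of the start in *Tdrd1*, 20 in *Hormad1*, 29 in *Ddx4*, 49 in *Taf7l*, 55 in *Stk31* and 94 in *Sycp1*. It stood 223 bases upstream in *Mael* and 246 in *Mov10l1*. *Tdrd1* had 2.52 and 3.35 CPM on day 3, against 11.0 and 12.6 CPM on day 2 (-2.0, SE 0.26), and *Stk31* had 0.740 and 0.620 CPM on day 3, against 3.21 and 4.46 CPM on day 2 (-2.51, SE 0.35). Among the 4 genes without the box, *Dazl*, *Rpl10l*, *Tdrd12* and *Tex19.1*, the changes were -3.13, -3.27, -2.31 and -2.04, beside -2.80 to -1.53 among the 8 that hold it. *Tdrd1* and *Stk31* were named after their values were seen.

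Of the core pluripotency list only *Dppa2* and *Dppa4*, of 10 members, fell. The genes lie side by side on mm10 chromosome 16 (48303908 to 48319723 and 48283733 to 48294237) and encode partner proteins that bind chromatin at developmental and germline genes. *Dppa2* had 2.66 and 2.15 CPM in WT7 and WT34 on day 3, against 43.1 and 36 CPM on day 2. This was the largest fall among passing genes with at least 5 CPM in the higher group and separate days, at -4.03 (SE 0.26, adjusted p = 2.23e-05). Predicted genes and genes with no symbol were left out of this ranking. *Dppa4* had 11.3 and 13.7 CPM on day 3, against 87.6 and 85.7 CPM on day 2 (-2.77, SE 0.21). *Pou5f1* had 728 and 680 CPM on day 3, against 711 and 660 CPM on day 2, and overlapped between the days (0.04, SE 0.15, adjusted p = 0.919). *Sox2* had 83.9 and 89.6 CPM on day 3, against 133 and 137 CPM on day 2, a difference of -0.64 that was under the fold required (adjusted p = 0.0207). The list median was -0.40.

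Naive pluripotency genes fell in 9 of 15 cases, 1 rose and 5 did not pass, and their median was -1.75. *Esrrb*, a nuclear receptor gene of the naive network, had 6.37 and 6.93 CPM on day 3, against 19.5 and 25.4 CPM on day 2 (-1.75, SE 0.16). *Nr5a2*, another nuclear receptor gene, had 0.444 and 0.547 CPM on day 3, against 4.78 and 4.46 CPM on day 2 (-3.13, SE 0.28). *Klf2* (-1.84, SE 0.20), *Zfp42* (-1.75, SE 0.24), *Dppa5a* (-1.92, SE 0.17) and *Fgf4*, the FGF ligand that ESCs themselves make (-1.84, SE 0.11), were lower by like amounts. In each of these 6 genes both day 3 libraries were below both day 2 libraries, and the call held with any library left out. *Klf4*, *Tfcp2l1* and *Tbx3* were among those that did not pass, at 0.02, -0.27 and -0.94. Of the list, 7 genes passed in all 4 fits that left out a library and 8 in each single one.

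*Nanog*, a homeobox gene of naive cells that is also switched on again in the posterior epiblast, moved against the rest of its list. It had 75.7 and 56.5 CPM in WT7 and WT34 on day 3, against 18.7 and 9.99 CPM on day 2. Both day 3 libraries lay above both of day 2, and the change was 2.22 (SE 0.24, adjusted p = 0.000322), or 1.94 to 2.58 with a library left out. On day 1 it stood at 29.3 and 21.8 CPM and on day 4 at 95.3 and 97.8 CPM, so day 2 held its lowest level in either line, and on day 5 WT7 had 52.4 CPM. In the first differentiation of the same lines *Nanog* on day 3 was 8.41 and 7.37 TPM in WT7 and WT34. In the time course it was 21.7 and 15.3 TPM on day 3, against 4.84 and 2.88 TPM on day 2.

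**Figure D2:**
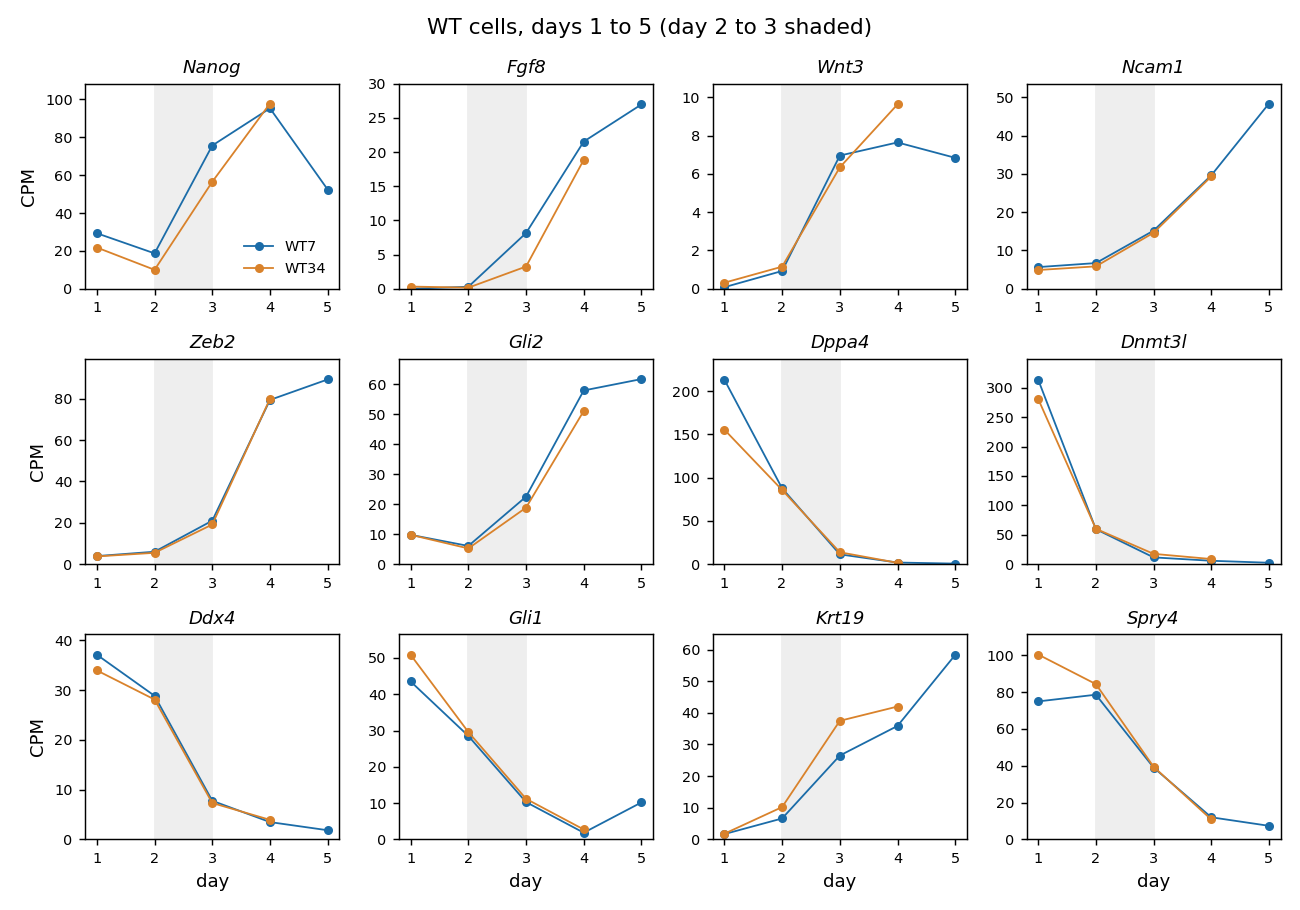
Level in CPM of 12 genes in WT7 (blue) and WT34 (orange) on days 1 to 5 of the time course, with 1 library per point, no WT34 library on day 5, and the step from day 2 to day 3 shaded. *Nanog* and *Gli2* were lowest on day 2, *Dppa4*, *Dnmt3l* and *Ddx4* declined through the step, and *Ncam1* and *Zeb2* had most of their increase after it.

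Formative and primed genes, which mark the state between naive and lineage-committed cells, gave 0 calls of 14, with a median of -0.37 and a range of -0.79 to 0.23. *Fgf5*, the epiblast FGF gene, had 87.0 and 73.5 CPM on day 3, against 85.5 and 72.4 CPM on day 2, and WT7 was the higher line on both days (0.02, SE 0.14). *Otx2* (-0.43) and *Pou3f1* (-0.71) had an adjusted p under 0.05 but were under the fold required. *Pim2* (-0.15) and *Foxd3* (-0.51) were also on the negative side and met neither condition. Of the 14 genes 7 had an adjusted p under 0.05, against 2478 of all 20143 tested, and of these 7 only *Tead2* was higher (0.23). Among 9 TET and DNMT enzyme genes 1 fell. This was *Dnmt3l*, which encodes an inactive cofactor of the de novo methyltransferases, with 11.4 and 17.4 CPM on day 3, against 59.4 and 60.0 CPM on day 2 (-2.04, SE 0.16). The methyltransferase genes *Dnmt3b* (2349 and 2128 CPM on day 3, against 3327 and 2982 CPM on day 2) and *Dnmt3a* differed by -0.49 and -0.64. *Tet1* itself had 252 and 247 CPM on day 3, against 489 and 492 CPM on day 2. Its change of -0.97 (SE 0.07, adjusted p = 4.32e-05) lay just under the fold required, while *Tet2* and *Tet3* were at 0.63 and 0.28.

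**Figure D3:**
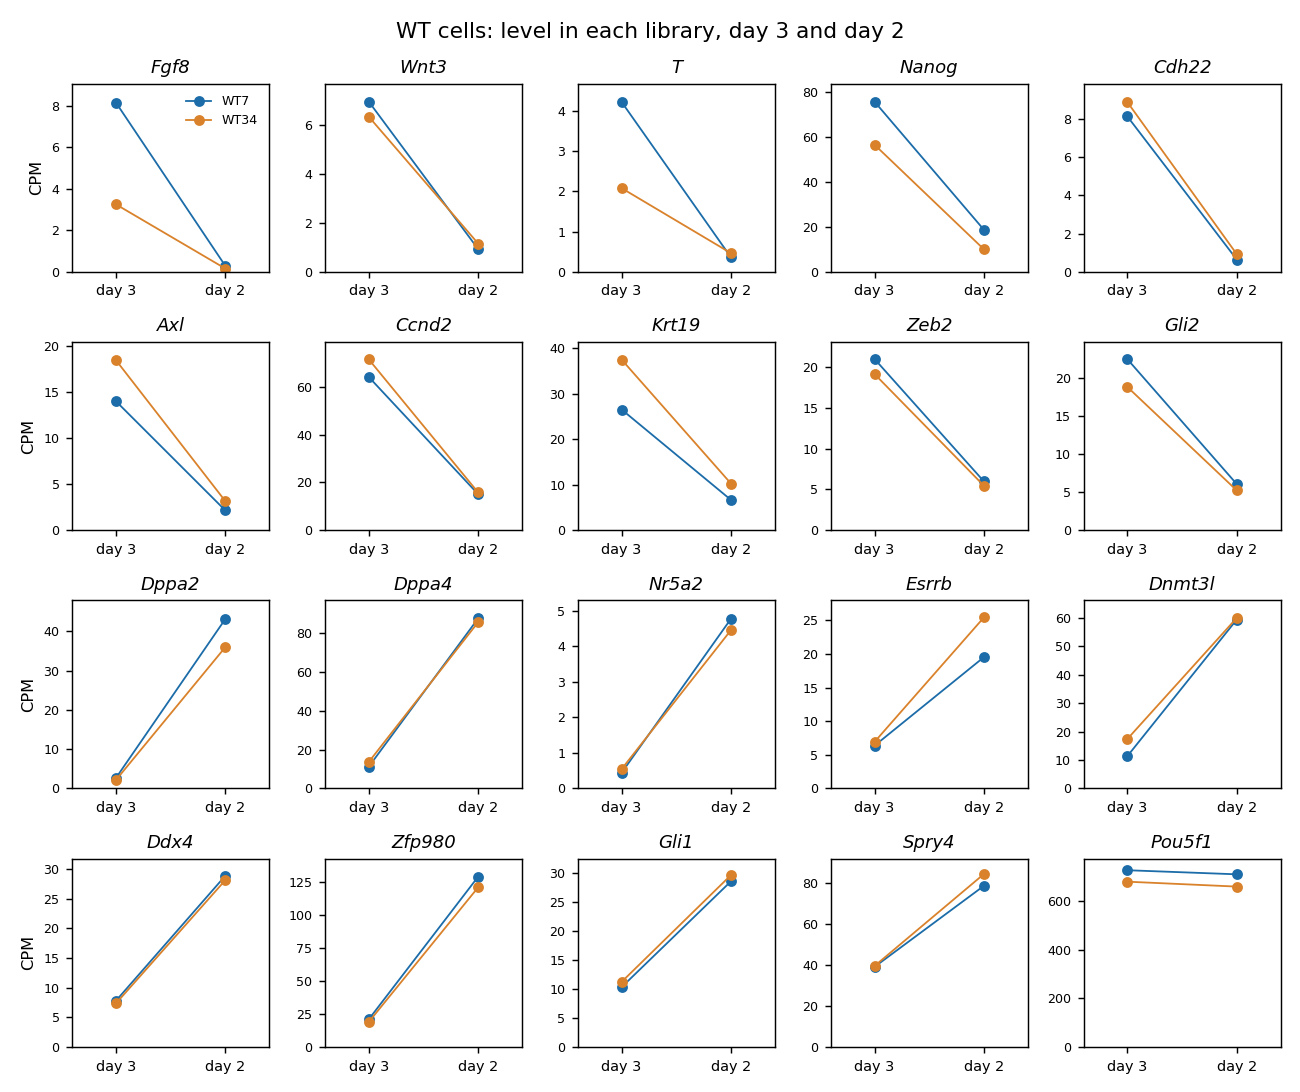
Level in CPM of 20 genes in each of the 4 libraries, day 3 on the left and day 2 on the right, with a line joining the libraries of WT7 (blue) and of WT34 (orange), each axis starting at 0. For all genes shown but *Pou5f1* the day 3 libraries did not overlap those of day 2.

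Ligand and streak genes rose from very low levels. *Fgf8*, an FGF ligand of the streak and of the midbrain organiser, had 8.14 and 3.24 CPM in WT7 and WT34 on day 3, against 0.285 and 0.154 CPM on day 2. The change was 4.55 (SE 0.56, adjusted p = 0.0006), from 6 counts in the day 2 libraries together, and WT7 had the higher level. *Wnt3*, the Wnt ligand needed to start gastrulation, had 6.96 and 6.34 CPM on day 3, against 0.927 and 1.15 CPM on day 2 (2.66, SE 0.27). *T*, the Brachyury gene of streak and mesoderm, had 4.22 and 2.08 CPM on day 3, against 0.356 and 0.461 CPM on day 2 (2.82, SE 0.53), and its adjusted p was 0.0804 without the WT7 library of day 2. *Eomes*, a streak and endoderm factor gene, had 18.4 and 12.4 CPM on day 3, against 5.77 and 6.45 CPM on day 2 (1.30, SE 0.23). Its call was lost without the WT7 library of day 2 or without that of day 3 (adjusted p up to 0.0788), and it did not pass with day 3 of the first differentiation (0.95, adjusted p = 0.244). For *Fgf8*, *T* and *Eomes* WT7 was the higher line on day 3. In TPM *Fgf8* had 5.27 and 2.53 on day 3, against 0.241 and 0.183 on day 2. On day 3 of the first differentiation it had 0.929 and 0.336 TPM. *Wnt3* had 1.21 and 1.02 TPM on day 3, against 0.144 and 0.195 TPM on day 2. On day 3 of the first differentiation it had 0.517 and 0.562 TPM.

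In all, 5 of 14 primitive streak genes rose, 0 fell and 9 did not pass, with a median of 1.16. The fifth was *Evx1*, with 13 counts on day 3 and 0 on day 2, at least 2.86-fold higher by a floor of 3 counts over the group, and its call was lost without 3 of the 4 libraries. *Mixl1* (1.26 and 0.875 CPM on day 3, against 1.14 and 0.845 CPM on day 2) and *Nodal* (20.4 and 14.0 CPM on day 3, against 10.1 and 8.61 CPM on day 2, adjusted p = 0.0517) did not pass. Without a library 2 to 5 of the streak genes passed, and *Wnt3* and *Fgf8* passed in every fit. Of 20 mesoderm genes only *Tcf15* changed, and it fell (-1.65, SE 0.27, not passing without the WT34 library of day 3). Of 10 definitive endoderm genes 1 rose. This was *Trh* (1.05, SE 0.17), whose call was lost without the WT34 library of day 2 or the WT7 library of day 3, and with day 3 of the first differentiation (0.77, adjusted p = 0.258). No visceral endoderm, trophoblast, or Hox and Cdx gene passed (0 of 9, 0 of 10 and 0 of 12). With 3.68% of all tested genes passing, 0 in lists of this size lies near that share. The Hox and Cdx genes summed to only 1.04 and 1.75 CPM on day 3, against 0.713 and 1.69 CPM on day 2.

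Wnt ligands and receptors included 5 that rose of 26, with 0 falling and a median of 0.54. Beside *Wnt3* these were *Wnt5b*, with 3.26 and 2.44 CPM on day 3, against 0.855 and 0.768 CPM on day 2 (1.78, SE 0.26), *Wnt4* (1.51, SE 0.28), *Wnt8a* (2.30, SE 0.42) and the receptor gene *Fzd10* (1.29, SE 0.34). *Wnt3* and *Wnt5b* passed with any library left out. The call on *Fzd10* was lost in all 4 such fits, that on *Wnt4* in all but the one without the WT7 library of day 2, and that on *Wnt8a* without either WT7 library. Of 15 Wnt target genes 3 rose. One was *T*, and *Sp5* had 35 counts on day 3 and 3 on day 2 (ratio 7.71, 95% interval 2.43 to 39.2 for counting error), a call lost in all fits but the one without the WT7 library of day 3. The third was *Rnf43* (1.07, SE 0.21), a ligase gene that removes Wnt receptors, which passed in none of the fits with a library left out. *Axin2*, a feedback target widely used as a readout, had 16.8 and 13.3 CPM on day 3, against 7.20 and 7.99 CPM on day 2. Its days did not overlap, and its change of 0.97 (SE 0.17, adjusted p = 0.0039) was just under the fold required. Of 17 Wnt antagonists and TCF factors 1 rose, the secreted antagonist *Frzb* (2.05, SE 0.35, not passing without the WT7 library of day 2), and *Tcf7l1*, a repressor of Wnt targets, was at -0.40.

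FGF signalling genes gave calls in both directions. Of 14 ligand and receptor genes *Fgf8* rose and *Fgf4* fell, and the median was 0.38. Of all tested genes 1.94% rose and 1.75% fell. Of 16 feedback and response genes 1 fell and 2 rose, and the median was -0.23. *Spry4*, an inhibitor induced by FGF, had 39.0 and 39.4 CPM on day 3, against 78.5 and 84.3 CPM on day 2. The lines were close on both days, and its change of -1.05 (SE 0.14) dropped just under the fold required, to -0.98, without the WT34 library of day 3. *Dusp6*, a phosphatase gene of the same feedback, had 98.8 and 107 CPM on day 3, against 177 and 188 CPM on day 2 (-0.82, SE 0.09, under the fold required). Also under the fold, with an adjusted p under 0.05, were *Etv5* (-0.93), *Dusp4* (-0.81), *Spry2* (-0.66), *Etv4* (-0.46) and *Dusp5* (0.50). They were named after their values were seen. *Phlda1* (1.19, SE 0.24) and *Fos* (1.62, SE 0.42) rose. The call on *Phlda1* was lost without the WT7 library of day 2 or the WT34 library of day 3, and that on *Fos* in all 4 fits.

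Of 12 hedgehog genes 1 rose, 2 fell and 9 did not pass. *Gli2*, a transcription factor of the pathway, had 22.5 and 18.8 CPM on day 3, against 6.06 and 5.23 CPM on day 2 (1.87, SE 0.13, adjusted p = 2.47e-05). *Gli1*, a target gene, had 10.3 and 11.2 CPM on day 3, against 28.5 and 29.6 CPM on day 2 (-1.44, SE 0.12). *Ptch1*, the receptor and also a target, had 51.7 and 49.9 CPM on day 3, against 125 and 103 CPM on day 2 (-1.16, SE 0.10). All 3 held with any library left out, but *Ptch1* was at -0.85 (adjusted p = 0.0605) in the fit with day 3 of the first differentiation. In the BMP pathway 3 of 21 genes rose and 1 fell. *Bmp7*, a ligand, had 12.1 and 14.7 CPM on day 3, against 4.92 and 6.07 CPM on day 2 (1.30, SE 0.19). The inhibitor genes *Smad6* (1.58, SE 0.22) and *Fst* (1.18, SE 0.17) rose too. *Fst* had 9.50 and 7.21 TPM on day 3, against 4.00 and 2.89 TPM on day 2. On day 3 of the first differentiation it had 2.17 and 1.65 TPM, and it did not pass in the fit that took this in (0.93, adjusted p = 0.165). The targets *Id1* and *Id3* were at 0.70 and -0.54 without passing. The antagonist *Grem1* had 1 count on day 3 and 14 on day 2 (ratio 0.0472, 95% interval 0.00112 to 0.310), and its call was lost without 3 of the 4 libraries. Among 17 Nodal pathway genes *Gdf3*, a ligand of pluripotent cells, fell to 4.00 and 4.99 CPM on day 3, against 19.5 and 19.4 CPM on day 2 (-2.10, SE 0.11).

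Of 19 Notch genes 0 passed (median 0.08), where 3.68% of all tested genes did, and *Dll1* was at -0.81. Retinoic acid genes gave 2 rising and 1 falling of 16, all under 2 CPM. *Dhrs3* and *Cyp26a1*, which lower retinoid levels, had 1.92 and 1.68 CPM and 0.666 and 0.765 CPM on day 3, against 0.214 and 0.231 CPM and 0.143 and 0.0768 CPM on day 2. *Cyp26a1* had 30 counts on day 3 and 3 on day 2 (ratio 6.61, 95% interval 2.05 to 33.8). *Aldh1a2*, which makes retinoic acid, was at 0.148 and 0.219 CPM on day 3, against 0.855 and 0.845 CPM on day 2. None of these 3 calls held in every fit that left out a library, and those on *Cyp26a1* and *Aldh1a2* held in none.

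**Figure D4:**
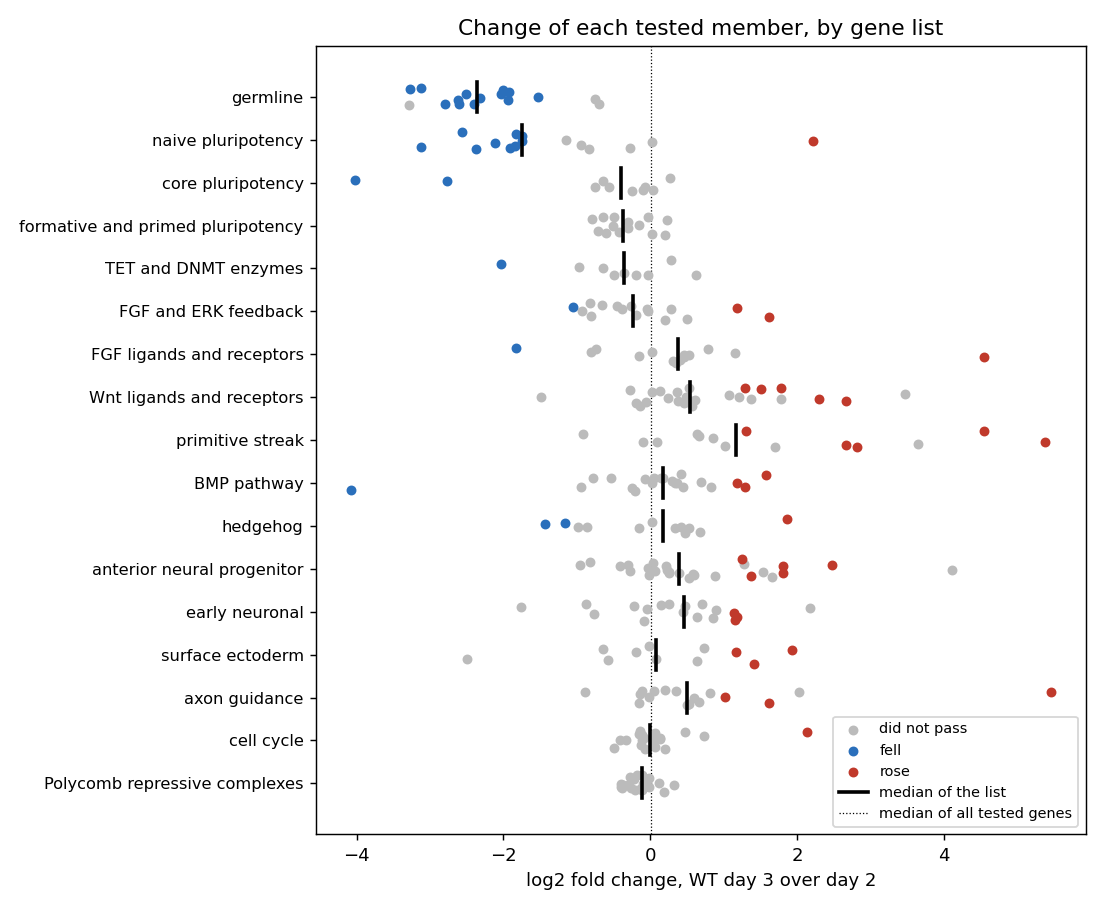
Log2 fold change of WT day 3 over day 2 for each tested member of 17 gene lists, with red points for genes that rose, blue for genes that fell and grey for genes that did not pass, a black bar at the median of each list and a dotted line at the median of all tested genes (0.02). The germline and naive lists have medians of -2.35 and -1.75, and the Polycomb list stays within -0.40 and 0.32.

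Neural genes began to rise within a list that was mostly level. Of 27 anterior neural progenitor genes 5 rose, 0 fell and 22 did not pass, with a median of 0.39. *Sp8*, a forebrain factor gene, had 10.7 and 7.73 CPM on day 3, against 1.57 and 1.69 CPM on day 2 (2.48, SE 0.24). *Ncam1*, a neural adhesion molecule gene, had 15.2 and 14.6 CPM on day 3, against 6.70 and 5.84 CPM on day 2 (1.25, SE 0.12). *Zeb2*, a factor gene that promotes neural fate and represses *Cdh1*, had 21 and 19.2 CPM on day 3, against 5.99 and 5.46 CPM on day 2 (1.81, SE 0.13). In TPM, which the authors corrected for transcript length, *Zeb2* overlapped, with 4.47 and 12.2 TPM on day 3, against 6.21 and 1.00 TPM on day 2. *Irx3* had 6.07 and 5.91 CPM on day 3, against 2.57 and 2.07 CPM on day 2 (1.38, SE 0.23). *Six3*, the eye field factor gene, was at 2.07 and 1.02 CPM on day 3, against 0.356 and 0.461 CPM on day 2 (1.81, SE 0.49, passing only without the WT34 library of day 3 among the fits with a library left out).

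The genes that define neural progenitors best did not pass. *Sox1* had 3.26 and 3.61 CPM on day 3, against 1.21 and 1.15 CPM on day 2, with days that did not overlap and an adjusted p of 0.056 (1.54, SE 0.47). *Pax6* had 0.814 and 2.26 CPM on day 3, against 1.35 and 1.23 CPM on day 2, with the lines moving apart. *Sox3*, *Sox11* and *Zic2* had 51.3 and 47.9, 272 and 267, and 166 and 147 CPM on day 3, against 66.6 and 55.8, 267 and 246, and 160 and 146 CPM on day 2, and their changes were -0.31, 0.07 and 0.03. *Nes*, the progenitor filament gene, had 348 and 399 CPM on day 3, against 223 and 273 CPM on day 2 (0.59, SE 0.08, adjusted p = 0.000779, under the fold required). Among 18 early neuronal genes 3 rose. *Stmn2*, a tubulin-binding protein gene, had 74.2 and 74.1 CPM on day 3, against 34.7 and 32.7 CPM on day 2 (1.14, SE 0.15). On day 1 it had 106 and 70.4 CPM, so day 2 lay below day 1 as well as day 3. In the KO lines its step was 0.97. *Elavl4* (1.19) and *Myt1l* (1.16) rose at low level. The call on *Myt1l* was lost with any library left out and that on *Elavl4* without any but the WT34 library of day 3.

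The midbrain and hindbrain list held 18 genes, of which 3 were higher and 2 lower on day 3. *Lmx1b*, a factor gene of the midbrain organiser, had 10.7 and 10.4 CPM on day 3, against 4.42 and 3.92 CPM on day 2 (1.35, SE 0.15), and *Fgf8* was the other that held with any library left out. *Irx1* (1.20, SE 0.34, TPM overlapping), *Dmbx1* (-1.96, SE 0.52) and *Lmx1a* (0 counts on day 3 and 8 on day 2, at least 4.04-fold lower) were low, and each lost its call in 3 or 4 of the fits. Of 17 axon guidance genes 3 rose, among them *Sema3c*, with 19.0 and 24.0 CPM on day 3, against 5.63 and 8.38 CPM on day 2 (1.63, SE 0.21), and *Slit3* (1.02, SE 0.10, at 0.96 without the WT7 library of day 3). The netrin receptor gene *Dcc* had 14 counts on day 3 and 0 on day 2, at least 3.08-fold higher, and lost its call in all 4 fits.

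Keratin genes of simple epithelia rose together. *Krt8* had 186 and 275 CPM in WT7 and WT34 on day 3, against 74.0 and 96.7 CPM on day 2 (1.42, SE 0.11). *Krt18* had 142 and 188 CPM on day 3, against 71.8 and 73.3 CPM on day 2 (1.17, SE 0.11). *Krt19* had 26.5 and 37.5 CPM on day 3, against 6.63 and 10.2 CPM on day 2 (1.93, SE 0.15). WT34 was the higher line throughout. They were the 3 that rose among 11 surface ectoderm genes, whose median was 0.07, and the others of the list did not pass. In the neural crest list *Ets1* (1.30, SE 0.12) and *Sox9* (1.52, SE 0.22) rose and *Sox8* fell (-1.84, SE 0.47, TPM overlapping and no call with a library left out), of 10 genes. Of 19 cadherin and EMT genes *Zeb2* alone passed. *Cdh1*, the epithelial cadherin gene, was at 754 and 843 CPM on day 3, against 954 and 995 CPM on day 2 (-0.29), and *Cdh2*, the neural cadherin gene, was at 29.2 and 28.5 CPM on day 3, against 18.1 and 20.4 CPM on day 2 (0.59).

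Of the cell cycle list 1 of 20 genes passed and of the glycolysis list 2 of 23, where 3.68% of all tested genes passed. *Ccnd2*, a D-type cyclin gene, had 64.1 and 71.5 CPM on day 3, against 15.0 and 15.8 CPM on day 2 (2.14, SE 0.11, adjusted p = 8.33e-06), as 1 of 20 cell cycle genes with a median of -0.00. *Slc2a3*, a glucose transporter gene, had 611 and 573 CPM on day 3, against 227 and 292 CPM on day 2 (1.20, SE 0.15), as the 1 of 23 glycolysis genes that rose. *Pdk1*, which restrains pyruvate entry into mitochondria, had 54.0 and 53.1 CPM on day 3, against 107 and 108 CPM on day 2 (-1.0, SE 0.19), and passed in no fit that left out a library. No gene passed of 23 in the Polycomb repressive complexes, 21 of cholesterol synthesis, 17 p53 targets or 12 of the integrated stress response. Nor did any of 11 of the hypoxia response, 18 ephrins and Eph receptors or 12 of the basement membrane. With 3.68% of all tested genes passing, 0 calls in lists of this size lies near that share. Of 28 imprinted genes *Dlk1* fell (-1.45, SE 0.36, lost in all 4 fits), and *Meg3* and *Peg3* were at -0.20 and -0.17. Of 9 fibroblast genes *Col3a1* fell (-1.08, SE 0.29, also lost in all 4).

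Among the largest rises with separate libraries and at least 5 CPM in the higher group, *Rpl9-ps4* and then *Fgf8* came first. Predicted genes and genes with no symbol were left out. Next were *Ltb*, a lymphotoxin gene (4.37 and 5.91 CPM on day 3, against 0.428 and 0.384 CPM on day 2, 3.62, SE 0.33) and the cadherin gene *Cdh22* (8.14 and 8.89 CPM on day 3, against 0.641 and 0.922 CPM on day 2, 3.44, SE 0.42). They were followed by *Trim67*, a ubiquitin ligase family gene (3.15, SE 0.47), the homeobox genes *Pknox2* (2.92, SE 0.25) and *Nkx1-2* (2.78, SE 0.43), and *Wnt3*. *Nkx1-2*, which marks the caudal epiblast, had 10.4 and 9.62 CPM on day 3, against 1.57 and 1.31 CPM on day 2. *Axl*, a receptor tyrosine kinase gene, had 14.0 and 18.4 CPM on day 3, against 2.14 and 3.15 CPM on day 2 (2.62, SE 0.18). *Cpz*, a carboxypeptidase gene (2.51, SE 0.25), *Sp8*, and the ligand gene *Tgfb2* (2.36, SE 0.19) completed the 12 with *Rpl9-ps4*. These calls held with any library left out. *Rpl9-ps4* is a pseudogene of a ribosomal protein, with 255 counts on day 3 and 0 on day 2 (at least 56.1-fold higher by a floor of 3 counts), and its value is uncertain because reads can be shared with its copies. It did not pass with day 3 of the first differentiation (adjusted p = 0.389).

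Under the same conditions, separate libraries and at least 5 CPM in the higher group, the 12 largest falls were *Dppa2*, *Dppa4*, *Mael* and 9 others. *Hsf2bp*, a gene of meiotic recombination, had 1.26 and 1.57 CPM on day 3, against 11.5 and 9.68 CPM on day 2 (-2.83, SE 0.21), and *D1Pas1*, a testis helicase retrogene, was at -2.89 (SE 0.39). *Gpx2*, a glutathione peroxidase gene, had 0.740 and 1.09 CPM on day 3, against 9.05 and 7.22 CPM on day 2 (-3.03, SE 0.26), and *Pla2g1b*, a phospholipase gene, was at -3.54 (SE 0.34). *Usp26*, a testis deubiquitinase gene on the X chromosome, had 1.04 and 0.182 CPM on day 3, against 8.05 and 2.38 CPM on day 2 (-3.21, SE 0.58), and passed only without the WT34 library of day 2. The other 4 were zinc finger genes. *Zfp980* had 20.9 and 19.0 CPM on day 3, against 129 and 121 CPM on day 2 (-2.65, SE 0.14), and *Rex2* had 6.44 and 8.53 CPM on day 3, against 51.6 and 49.8 CPM on day 2 (-2.68, SE 0.30). *Zfp936* was at -2.62 (SE 0.19) and *Zfp986* at -2.73 (SE 0.55, passing only without the WT7 library of day 2). They belong to families of close copies, among which reads are divided by estimate.

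Beside this step, 2648 genes or 13.1% passed between day 2 and day 1 in WT cells, and 1092 or 5.42% between day 4 and day 3. These comparisons share libraries with the one described, so only their counts are set side by side. Some of the genes described went on in the same direction and others did not. *Dppa4* was at 1.78 and 1.48 CPM on day 4, beside 213 and 155 CPM on day 1, and *Dnmt3l* at 5.64 and 8.58 CPM on day 4, beside 314 and 281 CPM on day 1. *T* reached 58.4 and 62.7 CPM on day 4, *Fgf8* 21.5 and 18.8 CPM, *Zeb2* 79.5 and 80.0 CPM, and *Ncam1* 29.6 and 29.3 CPM. *Trh* was at 20.3 and 18.2 CPM on day 4, *Nodal* at 9.06 and 9.64 CPM and *Sox2* at 125 and 126 CPM. *Ptch1* was at 253 and 221 CPM on day 1 and 59.2 and 58.5 CPM on day 4, with 158 CPM in WT7 on day 5.

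The same step was made by the KO lines, and the difference of the steps, KO minus WT, was tested in the same model. *Tet1* had 62.9 and 73.1 CPM in KO1 and KO15 on day 3 and 69.2 and 72.0 CPM on day 2, below all 4 WT libraries of these days. The difference passed for 52 genes or 0.258%, of which 35 were higher (0.174%) and 17 lower (0.0844%) in KO. For most of what is described above no difference passed, among them 0 of 16 germline and 0 of 15 naive genes, and *Nanog* (0.73, adjusted p = 0.655). That does not show that the genotypes moved alike. Of 14 primitive streak genes 3 passed, all higher in KO. *Mixl1*, a streak homeobox gene, had 31.3 and 48.7 CPM in KO1 and KO15 on day 3 and 1.46 and 1.63 CPM on day 2. In WT cells it did not move, so the difference was 4.58 (SE 0.53, adjusted p = 0.00673). *Foxa2*, of endoderm and anterior streak, had 51.4 and 50.8 CPM in KO on day 3 and 1.65 and 3.11 CPM on day 2 (difference 3.77, SE 0.42). Its WT libraries had 2.00 and 3.24 CPM on day 3 and 1.50 and 1.84 CPM on day 2. The call on *Mixl1* was lost without the WT7 or the WT34 library of WT day 2 or the WT34 library of WT day 3, and that on *Foxa2* without either library of WT day 2. *Eomes* had 154 and 211 CPM in KO on day 3 and 21.6 and 23.2 CPM on day 2 (difference 1.73, SE 0.30, adjusted p = 0.0426), a call kept in 1 of 8 fits that left out a library. For *T*, with 194 and 214 CPM in KO on day 3 and 2.73 and 1.26 CPM on day 2, the difference of 3.81 (SE 0.91) did not pass (adjusted p = 0.157). That for *Wnt3* was 1.29 (adjusted p = 0.305).

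**Figure D5:**
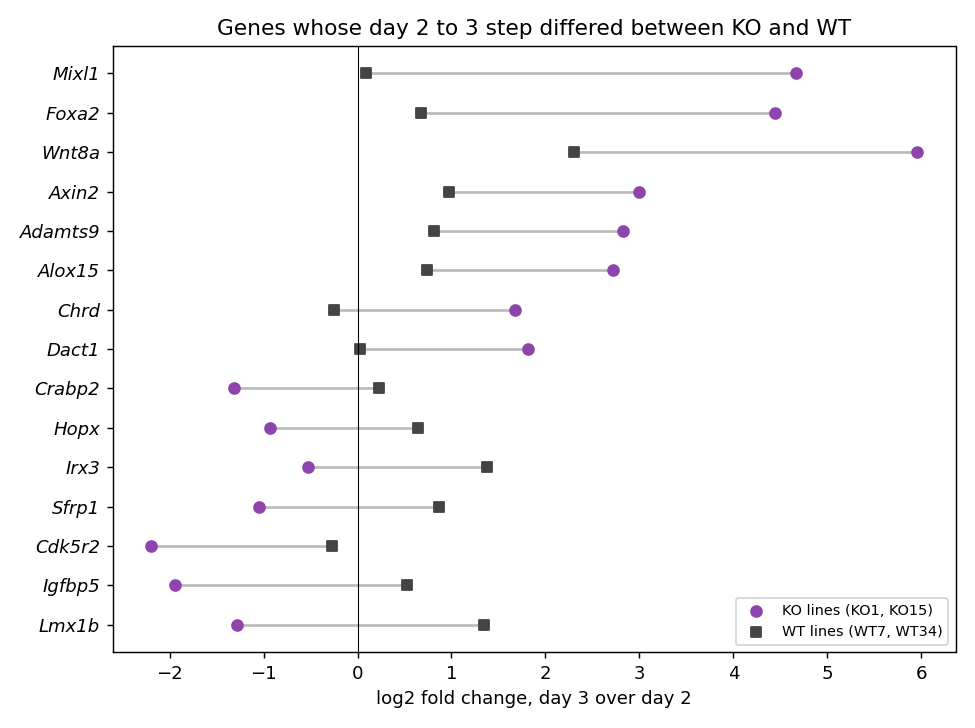
Log2 fold change of day 3 over day 2 in the KO lines (purple circles) and the WT lines (dark squares) for the 8 genes with the highest and 7 of the 8 with the lowest difference of the steps, *Rpl9-ps4* being left out. *Mixl1* and *Foxa2* rose by over 4 in KO, against changes under 1 that did not pass in WT, and *Lmx1b* was at -1.28 in KO and 1.35 in WT.

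Of the 8 genes with the lowest difference, *Lmx1b*, *Irx3* and *Rpl9-ps4* had risen in WT. *Lmx1b* had 2.53 and 3.18 CPM in KO1 and KO15 on day 3 and 6.59 and 7.32 CPM on day 2, so its step was -1.28 in KO and 1.35 in WT (difference -2.63, SE 0.21, adjusted p = 0.00098). *Igfbp5*, an IGF-binding protein gene, had 7.35 and 9.30 CPM in KO on day 3 and 29.3 and 34.2 CPM on day 2 (difference -2.47, SE 0.16, adjusted p = 0.000245), while WT7 and WT34 had 32.9 and 30.8 CPM on day 3 and 23.3 and 21.1 CPM on day 2. These 2 passed in each of the 8 fits that left out a library. Over all genes, the number passing was 4 to 49 in these fits, with 4 without the WT34 library of day 2 and 8 without that of day 3.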

How the data were processed

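RNA was extracted with Trizol, and stranded polyA libraries were sequenced as single reads. After trimming in Trim Galore 0.6.4 the authors estimated transcript abundance by Salmon 0.14.1, with GENCODE M23 (mm10) as the annotation, and summed transcripts to genes with tximport. The deposited tables hold expected counts, which Salmon divides among genes that share sequence, so paralogs and pseudogenes are uncertain, and TPM, which the authors corrected for transcript length. Expected counts were rounded to whole numbers.

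The 18 time-course libraries were fitted together with edgeR 4.0.16 (R 4.3.3) by its quasi-likelihood F test, with group and line terms, TMM scaling and filterByExpr, and p-values were adjusted by Benjamini-Hochberg over 20143 genes. CPM values were scaled by TMM. The same lines gave both days, so the lines were paired by the labels. The deviation of WT34 from WT7 correlated between the days at r = 0.0489 across genes, and their changes at 0.417. limma 3.58.1 on the log2 of the deposited TPM plus 0.1 or 1, and DESeq2 1.42.0, were alternatives, beside no filter, other scaling, other library sets, no line term and each library left out. Scripts were tested on simulated data. Intervals (95%) and floors of 3 counts cover counting error only.

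Genes were named by rule: markers, the 12 highest and 12 lowest changes among passing genes with separate libraries and at least 5 CPM in the higher group, up to 5 members of each of 40 lists, and the 8 highest and 8 lowest differences between genotypes. Predicted genes were left out. The comparison, lists and rule were chosen with earlier results of these data known. Positions are those of GENCODE M21 (GRCm38), which holds 99.9% of tested gene IDs, and promoters are from RefSeq. For 20 symbols with more than 1 gene the row with the highest mean was used.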

Additional observations from a re-analysis of the deposited data

Results flagged for a closer look

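The step from day 2 to day 3 differed between KO and WT cells, by the test of the difference itself, for 52 genes. The 8 highest differences, KO step minus WT step on the log2 scale, were those of *Mixl1* (4.58), *Foxa2* (3.77), *Wnt8a* (3.66), *Axin2* (2.03), *Adamts9* (2.02), *Alox15* (1.98), *Chrd* (1.93) and *Dact1* (1.79). *Axin2*, a Wnt feedback gene, had 69.3 and 72.0 CPM in KO1 and KO15 on day 3 and 9.64 and 7.92 CPM on day 2, while WT7 and WT34 had 16.8 and 13.3 CPM on day 3 and 7.20 and 7.99 CPM on day 2. Its call was lost in 2 of 8 fits that left out a library, and that on *Wnt8a* in all 8. The 8 lowest were those of *Rpl9-ps4* (-20.73), *Lmx1b* (-2.63), *Igfbp5* (-2.47), *Cdk5r2* (-1.92), *Sfrp1* (-1.92), *Irx3* (-1.90), *Hopx* (-1.57) and *Crabp2* (-1.54). The value for the pseudogene *Rpl9-ps4* is a fitted one and no size, since KO1 and KO15 had 0 and 0 CPM on day 3 and 0 and 30.7 CPM on day 2. *Sfrp1*, a Wnt antagonist gene, had 12.1 and 18.8 CPM in KO on day 3 and 28.8 and 35.1 CPM on day 2. Calls on *Cdk5r2* were lost in all 8 fits and those on *Alox15*, *Chrd*, *Irx3* and *Hopx* in 7 of them. That on *Adamts9* was lost in 5, that on *Mixl1* or *Sfrp1* in 3, that on *Foxa2*, *Dact1* or *Rpl9-ps4* in 2 and that on *Crabp2* in 1, while *Lmx1b* and *Igfbp5* passed in all 8.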

How the results depend on the processing

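Of 742 genes passing between day 3 and day 2 in WT cells, 389 were beyond 1.5 on the log2 scale. The limma fits covered 14443 genes, those with a mean of at least 1 TPM, against 20143 in the main fit. Of the 89 passing genes described, 32 passed in limma with 0.1 added to the TPM and 41 did not. With 1 added 33 passed and 40 did not, and the rest were not tested by limma. limma on TPM gave 151 (0.1 added) and 176 (1 added), DESeq2 584, and leaving out a library 395 to 410. Without the replicate block, the term that pairs the lines, 765 genes passed, 706 of them among the 742. With day 3 of both differentiations 959 passed, 651 of them among the 742. For the difference of the KO and WT steps, 52 genes became 89 with all 36 libraries, 11 with limma, 176 with no filter on low counts, 34 without the replicate block, 30 beyond 1.5, and 4 to 49 with a library left out. Between day 2 and day 1, 2648 became 1124 with limma and 1613 beyond 1.5. Between day 4 and day 3, 1092 became 285 and 600. The causes were not tested, apart from the higher fold. With n = 2 a day, 35 of the 742 genes had under 4 counts in one of the days, where fitted folds are no sizes.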

Other observations

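Zinc finger genes with the symbol Zfp were counted after values had been seen. Of 396 tested 19 fell and 3 rose, with a median of -0.11, where 1.75% of all tested genes fell and 1.94% rose with a median of 0.02, and 11 of the fallen lay on mm10 chromosome 4 between 145670685 and 147702553. That stretch was drawn from the first to the last of the fallen genes, so its counts are a description: it held 15 tested Zfp genes and 44 tested genes in all, of which 15 fell and 0 rose. The summed level of the 15 Zfp genes was 286 and 268 CPM in WT7 and WT34 on day 3, against 756 and 734 CPM on day 2, beside 3313 and 2129 CPM on day 1 and 143 and 125 CPM on day 4. In KO1 and KO15 it was 354 and 396 CPM on day 3, against 1020 and 890 CPM on day 2. These genes are close copies, so the sum is firmer than any member. The 3 that rose were *Zfp521* (1.78), *Zfp703* (1.47) and *Zfp827* (1.16).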
